A study of Halocynthia roretzi with 24 samples.

Results

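A set of 5 gene models from *Halocynthia roretzi*, an ascidian or sea squirt, was followed through every library of a study that compared regions of the embryo at 8 and at 110 cells. They were named by identifier, out of 16078 models with an RPKM value, and all 5 passed the filter on low values that left 12703 models for testing. They were chosen by their measured levels, as vegetal genes that come on between the stages. For 4 of them the values known to have been used are those of the vegetal and animal hemispheres, and for the fifth, S461.g13082, the values that led to its choice are not recorded. Hemisphere values of the 5, and their rise between the stages, are therefore given as a description, with no test of the rise or of vegetal against animal levels.

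RNA was sequenced from animal hemispheres, vegetal hemispheres and whole embryos, each at both stages, with 4 libraries numbered 2 to 5 in each of the 6 groups and 24 in all. Every group was wild type, from a southwestern Japanese population kept in an inland laboratory, with no treatment named. The labels do not say how the hemispheres were parted, how many embryos were pooled or what a library number marks. The p-values therefore measure how far these libraries spread, which may be technical. Levels are in RPKM, reads scaled to the length of the gene model and to library size, which allows genes to be compared per length. The depth inferred from the steps between low values was 1830000 to 4600000 read pairs per library. No gene name in the files marks a hemisphere, so the region labels could not be checked against known markers.

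The first division between animal and vegetal cells of an ascidian embryo separates lineages with different fates. Animal cells form mostly epidermis and part of the nervous system, and vegetal cells form endoderm, notochord, muscle and mesenchyme, as well as part of the nervous system. Early cleavage runs largely on RNA stored in the egg, and transcription from the embryo's own genome takes over as fates are set. A transcript near 0 in cleaving embryos and present before gastrulation is usually described as zygotic.

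The annotation placed the 5 models on 5 scaffolds. Harore.CG.MTP2014.S104.g10185, from here on S104.g10185, lies on the minus strand of scaffold S104 from 229361 to 231074, with 4 coding exons, and its note names KH.C6.217 as best match. Harore.CG.MTP2014.S31.g00819 lies on the plus strand of S31 from 110877 to 111266, with 2 coding exons of 309 bases in all, and no match was found. Harore.CG.MTP2014.S42.g07916 lies on the plus strand of S42 from 246315 to 250245, with 9 coding blocks over 2 transcripts and the match KH.C1.224. Harore.CG.MTP2014.S80.g04926 lies on the plus strand of S80 from 38960 to 39795, with 2 coding exons and no note. Harore.CG.MTP2014.S461.g13082 lies on the minus strand of S461 from 42780 to 44665, with 5 coding exons and the match KH.S589.4.

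Identifiers that begin with KH have the form used for gene models of *Ciona*, another ascidian, but the files do not explain them and give no gene name. No function can therefore be stated for any of the 5. None of the models carries an untranslated region in the annotation, although 6881 of 16082 models do, so reads from untranslated ends would not be counted in them.

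At 8 cells the models were low. Of 60 values, 5 models in 12 libraries, 35 were exactly 0, and 12 lay above a floor that stands for 3 read pairs in the library concerned. Of those 12 values, 6 belonged to S31.g00819, which was the only one of the 5 detected in all 12 libraries of 8 cells. It stood at 3.27, 2.0, 0.992 and 3.22 RPKM in animal hemispheres of numbers 2, 3, 4 and 5. In vegetal hemispheres it stood at 4.70, 3.76, 1.35 and 3.90 RPKM, and in whole embryos at 1.11, 4.67, 1.05 and 0.886 RPKM. The ranges of the 3 groups overlapped. The model is short, so that these levels rest on about 1 to 5 read pairs per library and 33 in all, and 6 of the 12 values were at or under the floor. For S31.g00819 "switched on" therefore means a rise from a low level that was seen in every library. S104.g10185 had 24 read pairs in 6 of the 12 libraries, at most 6 in 1 library, with 4 values above the floor. S42.g07916 had 10 read pairs in 4 libraries, with 2 values above the floor. S80.g04926 had 3 read pairs in 2 libraries and S461.g13082 1 read pair, all under the floor.

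**Figure D1:**
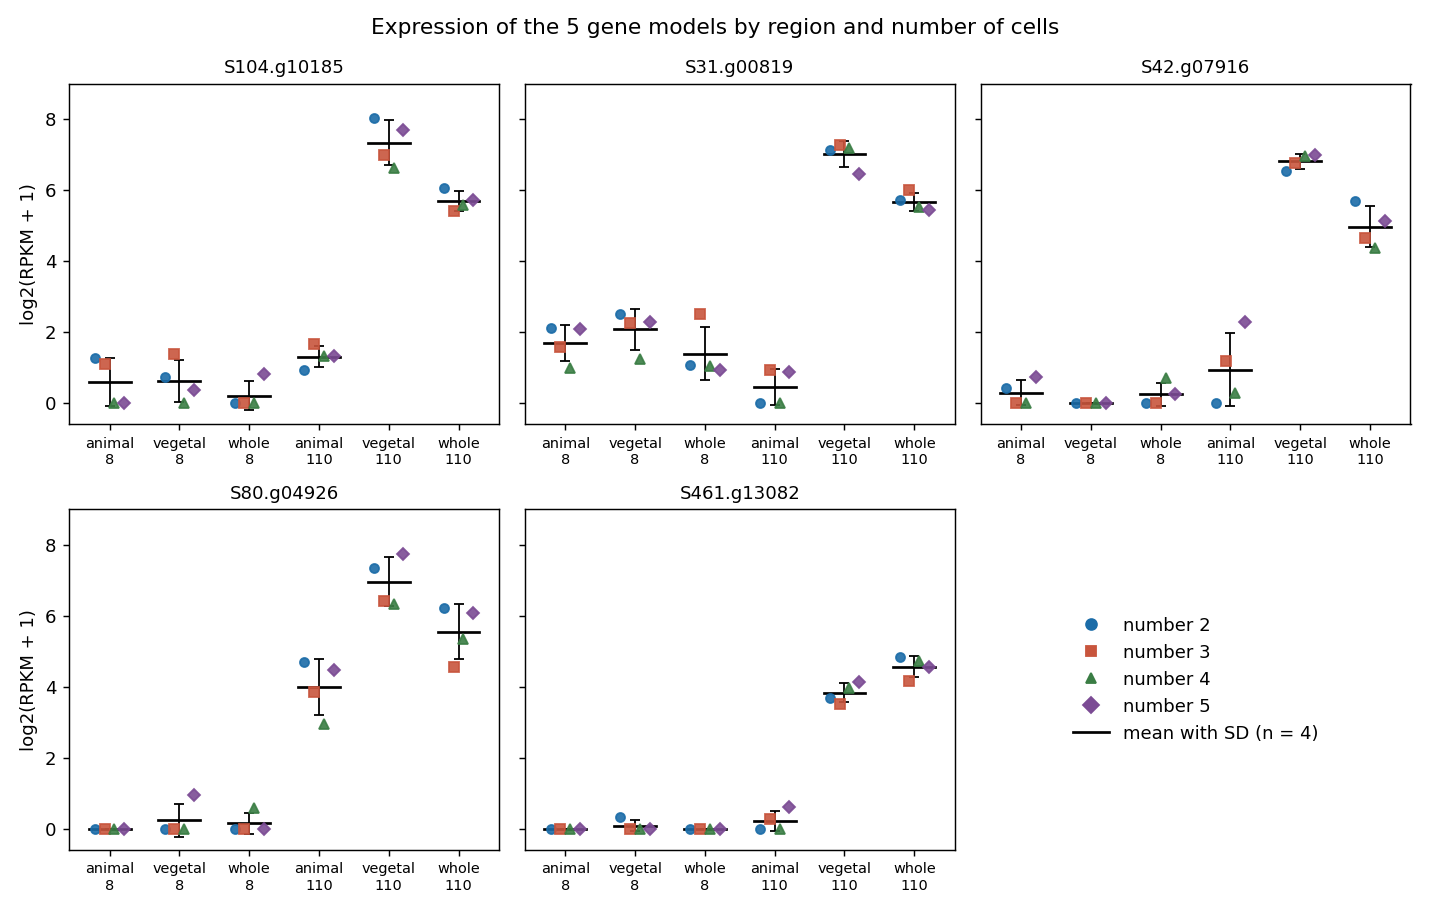
Level of each gene model as log2(RPKM + 1) in animal hemispheres, vegetal hemispheres and whole embryos at 8 and 110 cells; points are libraries marked by number, lines are means and bars SD (n = 4). In 4 panels the vegetal hemispheres of 110 cells are highest, and for S461.g13082 the whole embryos are.

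At 110 cells S104.g10185 stood at 258, 126, 97.7 and 205 RPKM in the vegetal hemispheres of numbers 2, 3, 4 and 5. In animal hemispheres of the same numbers it stood at 0.884, 2.14, 1.51 and 1.49 RPKM. The vegetal mean was 172 ± 73.3 RPKM and the animal mean 1.51 ± 0.514 RPKM (SD, n = 4), a vegetal minus animal difference of 6.03 on the log2(RPKM + 1) scale. Whole embryos lay between them, at 65.6, 41.3, 47.2 and 52.1 RPKM. The 3 groups of 110 cells did not overlap, and the animal hemispheres of 110 cells overlapped with those of 8 cells, which reached 1.39 RPKM.

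S31.g00819 stood at 140, 152, 144 and 87.1 RPKM in the vegetal hemispheres of numbers 2, 3, 4 and 5 at 110 cells. In the animal hemispheres it stood at 0, 0.889, 0 and 0.808 RPKM, which is 1 read pair in each of 2 libraries, and all 4 values were under the floor of 2.56 to 3.38 RPKM. Whole embryos stood at 51.8, 63.1, 45.0 and 42.4 RPKM, below every vegetal library. In animal hemispheres the mean was 2.37 ± 1.09 RPKM at 8 cells and 0.424 ± 0.491 RPKM at 110 cells (SD, n = 4). The lowest value at 8 cells (0.992 RPKM) and the highest at 110 cells (0.889 RPKM) were each 1 read pair, so the ranges are not told apart. Both means lay under their mean floors of 2.61 and 3.01 RPKM, and no fold is given.

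S42.g07916 was listed at 0 in the 4 vegetal libraries of 8 cells. At 110 cells the vegetal hemispheres of numbers 2, 3, 4 and 5 stood at 91.0, 107, 124 and 127 RPKM, the narrowest relative spread of the 5 models in vegetal hemispheres (14.7% of the mean). The animal hemispheres stood at 0, 1.24, 0.212 and 3.87 RPKM, of which the library of number 5 held 25 of the 33 read pairs. Whole embryos stood at 50.8, 24.2, 19.8 and 34.2 RPKM, and here the spread was 42.7% of the mean, with number 2 highest. In vegetal hemispheres number 2 was the lowest.

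S80.g04926 was the 1 model of the 5 with a clear level in animal hemispheres. At 110 cells they stood at 25.0, 13.3, 6.71 and 21.1 RPKM in numbers 2, 3, 4 and 5, and at 8 cells all 4 were listed at 0. The animal mean of 16.5 ± 8.17 RPKM at 110 cells (SD, n = 4) was at least 14.4-fold higher than the mean 8-cell floor of 3 read pairs per library, 1.15 RPKM. The vegetal hemispheres stood at 161, 85.1, 79.7 and 214 RPKM, above every animal library. Whole embryos stood at 73.5, 22.3, 39.2 and 67.0 RPKM, and their range overlapped with that of the animal hemispheres. In all 3 groups numbers 2 and 5 were higher than numbers 3 and 4. The vegetal minus animal difference was 2.98 on the log2(RPKM + 1) scale, where S104.g10185 had 6.03.

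S461.g13082 differed from the other four in level and in order. The vegetal hemispheres of 110 cells stood at 11.9, 10.5, 14.7 and 16.5 RPKM in numbers 2, 3, 4 and 5, and the whole embryos at 27.4, 16.9, 25.3 and 22.5 RPKM. Every whole-embryo library lay above every vegetal library, with means of 23 ± 4.54 and 13.4 ± 2.70 RPKM (SD, n = 4). The animal hemispheres stood at 0, 0.193, 0 and 0.525 RPKM, which is 4 read pairs in all. At 8 cells the 4 animal and 4 whole libraries were listed at 0, and 1 vegetal library held 1 read pair. The vegetal minus animal difference was 3.62 on the log2(RPKM + 1) scale, which understates differences of low genes. The highest mean of the model was in whole embryos, not in vegetal hemispheres. The whole minus vegetal difference was 0.73 ± 0.20 SE on that scale, and limma did not call it (adjusted p = 0.058).

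The share of the vegetal level that was present in animal hemispheres was close to 0 for 4 of the models. Within same-numbered libraries of 110 cells it was 1.08% ± 0.649 for S104.g10185, 0.378% ± 0.459 for S31.g00819, 1.10% ± 1.40 for S42.g07916 and 1.25% ± 1.55 for S461.g13082 (SD, n = 4). For S80.g04926 it was 12.3% ± 3.75, with a range of 8.41% to 15.6% that lay above that of each of the other four, which reached 3.18% at most. Over 239 genes that were called vegetal-higher at 110 cells with a vegetal mean of 20 RPKM or more, the median share was 26.3%, and 94 of the 238 others were below S80.g04926. For 3 models the share was highest in number 5, and most of the rest came from number 3. The animal values behind it were at most 1 read pair per library for S31.g00819 and 3 for S461.g13082. Without number 5 the share was 0.195% for S31.g00819, 0.443% for S42.g07916 and 0.611% for S461.g13082, a change smaller than the SD between numbers. Hemisphere values entered the choice of the models, so that these shares are a description.

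**Figure D2:**
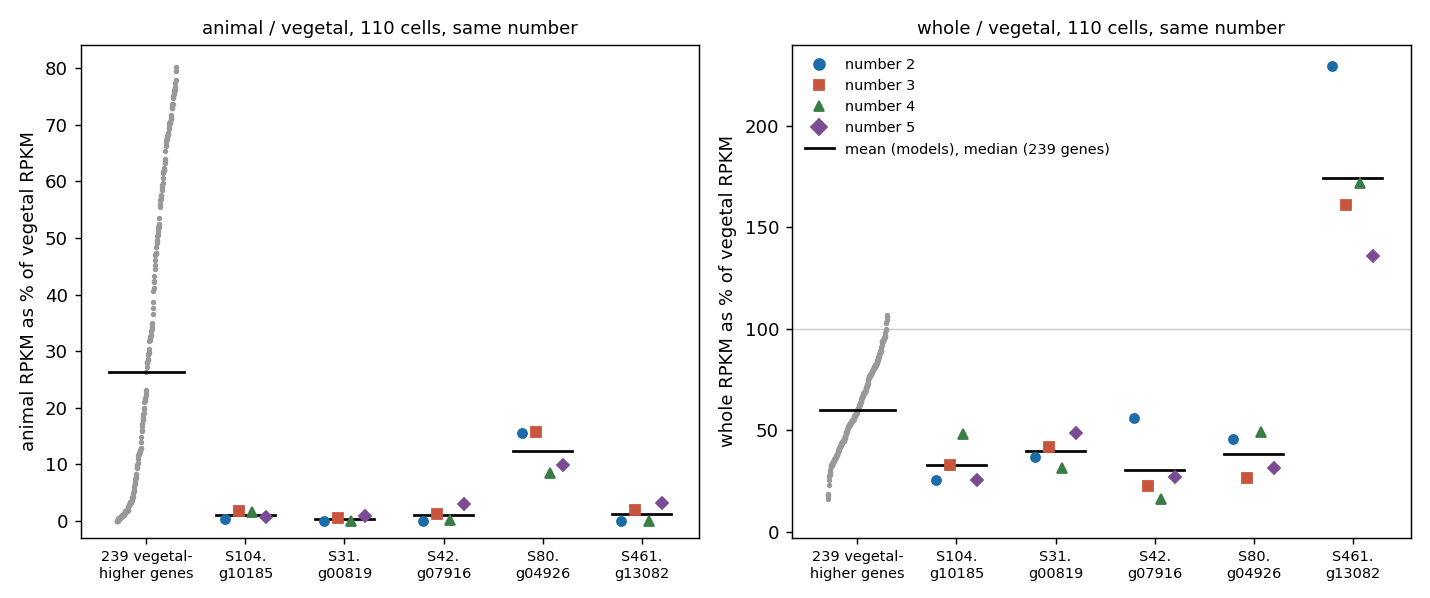
RPKM in animal hemispheres (left) and whole embryos (right) as a percentage of the vegetal hemispheres of the same number at 110 cells; coloured points are the 4 numbers, grey points the means of 239 vegetal-higher genes in rising order, lines the mean or, for the 239 genes, the median. S80.g04926 lies at 8.41% to 15.6% on the left, and S461.g13082 at 136% to 229% on the right, where the grey points end at 107%.

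Whole embryos held 33% ± 10.8 of the vegetal level of S104.g10185, 39.6% ± 7.39 of that of S31.g00819, 30.3% ± 17.6 of that of S42.g07916 and 38.1% ± 11.1 of that of S80.g04926 (SD, n = 4). These 4 shares did not differ beyond the spread between numbers. The median over the 239 vegetal-higher genes was 60.1%. For S461.g13082 the share was 174% ± 39.4, with 229%, 161%, 172% and 136% in numbers 2, 3, 4 and 5. None of the 239 genes reached it, and their highest mean share was 107%. S461.g13082 itself, with a vegetal mean of 13.4 RPKM, lies under the 20 RPKM that these genes had to reach. S264.g00833, the gene of most like profile, also had a higher mean in whole embryos (15.9 RPKM) than in vegetal hemispheres (9.68 RPKM). Shares of other genes under 20 RPKM were not compared, and for those of 5 to 20 RPKM only the overlap of ranges was, as given below. The 174% is therefore not shown to be particular to S461.g13082. In bulk samples a smaller share of cells that hold a transcript and less of it per cell cannot be told apart.

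Whole embryos above vegetal hemispheres without overlap were seen in 2.43% of the 12703 genes tested. Among the 212 vegetal-higher genes with a vegetal mean of 5 to 20 RPKM, a band set after the values were seen, S461.g13082 was the only such gene (0.472%), and among the 239 at 20 RPKM or more there were 0. Vegetal hemispheres above whole embryos without overlap, the order of the other four models, were seen in 2.68% of all genes tested and in 37.7% of the 239.

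The spread between numbers was not the same for each model. In vegetal hemispheres of 110 cells the highest library was 2.64 times the lowest for S104.g10185 and 2.69 times for S80.g04926, and in both models numbers 2 and 5 were above numbers 3 and 4. The ratio was 1.75 for S31.g00819, where number 5 was lowest, and 1.39 for S42.g07916, where number 5 was highest. In whole embryos number 2 was the highest library for 4 models, and number 3 for S31.g00819. Same-numbered vegetal and whole libraries of 110 cells deviated together across all genes, and the labels do not name what they share.

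In whole embryos, the libraries that hold both hemispheres, all 5 models were higher at 110 than at 8 cells. The limma test over all 12703 genes called 13.5% of them higher at 110 cells and 10.9% lower. The models were picked as genes that come on by this stage, possibly with whole-embryo values in view, so the count of 5 of 5 describes the choice, and no p-value is given for them. S104.g10185 went from 0.188 ± 0.376 to 51.5 ± 10.4 RPKM (log2 difference 5.49 ± 0.35 SE). S80.g04926 went from 0.122 ± 0.245 to 50.5 ± 23.9 RPKM (log2 difference 5.40 ± 0.39 SE). S42.g07916 went from 0.201 ± 0.296 to 32.2 ± 13.8 RPKM (log2 difference 4.73 ± 0.37 SE).

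S31.g00819 went from 1.93 ± 1.83 to 50.6 ± 9.25 RPKM in whole embryos (log2 difference 4.29 ± 0.36 SE). S461.g13082, listed at 0 in the 4 whole embryos of 8 cells, was at least 36.2-fold higher at 110 cells than the mean floor of 0.635 RPKM for 3 read pairs per library. Each model was higher in 4 of 4 whole-embryo libraries of 110 cells than in any of 8 cells. Their choice as genes that come on implies this order, and its share over all genes was not counted. The median of the 5 log2 differences was 4.73, against 0.04 over all genes tested. On this scale the size depends on the pseudocount for genes near 0. With 0.1 in place of 1 the difference of S104.g10185 was 8.22 and with 5 it was 3.43, while that of S31.g00819 was 4.97 and 3.02.

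**Figure D3:**
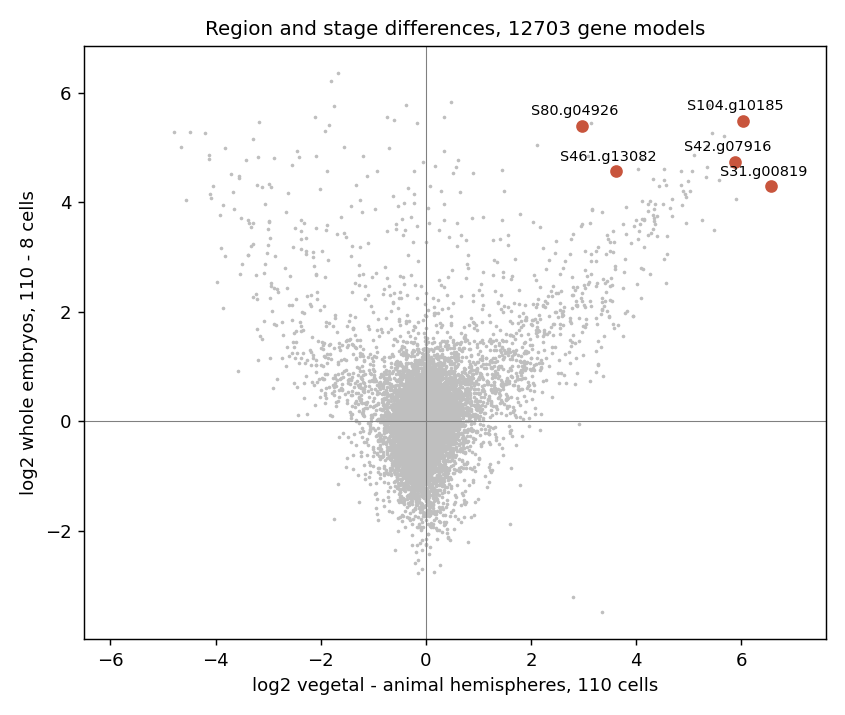
Difference between whole embryos of 110 and 8 cells against the difference between vegetal and animal hemispheres at 110 cells, both of mean log2(RPKM + 1), for 12703 gene models (grey) and the 5 described here (red). The 5 lie at the upper right, S104.g10185, S42.g07916 and S31.g00819 at the right edge and S80.g04926 and S461.g13082 nearer the middle.

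The surroundings of the models on their scaffolds are not known to have been part of the choice, but they may not be independent of it. The nearest neighbours lie 40 and 61 bases from models with no annotated untranslated region, and the libraries did not keep strand. Calls of neighbours are therefore given as a description of the loci. Within 10 kb lay 22 other gene models, of which 18 were tested. Of these, 9 were called vegetal-higher at 110 cells by limma, against 5.51% of all genes, and 2 animal-higher, against 3.64%. The median vegetal minus animal difference of the 18 was 0.72 on the log2 scale, against -0.06 over all genes. Neighbours differed between the loci, from 4 of 5 tested models vegetal-higher around S104.g10185 and 3 of 3 around S80.g04926 to 0 of 3 around S42.g07916. There was 1 of 1 around S31.g00819 and 1 of 6 around S461.g13082. Those around S80.g04926 include S80.g13696 and S80.g13465, short models at low levels, as given below. Models of 1 locus can vary together, so the 18 are not separate observations. In whole embryos 9 of the 18 were higher at 110 cells and 2 lower, against 13.5% and 10.9%. None of the 22 models overlaps 1 of the 5.

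The nearest neighbours of S31.g00819 and S80.g04926 lie end to end with them. S31.g08208, with the match KH.C11.313, ends on the minus strand 61 bases past the end of S31.g00819, and is the 1 model within 10 kb of it. It stood at 94.5 ± 22.8 RPKM in vegetal, 42.1 ± 6.93 in whole and 1.65 ± 1.64 in animal libraries of 110 cells (SD, n = 4; log2 vegetal minus animal 5.35 ± 0.32 SE, limma adjusted p = 2.47e-11). At 8 cells it was also present, at 2.33 ± 0.625 RPKM in vegetal and 1.27 ± 0.473 in animal hemispheres. S80.g01497, with no match, ends on the minus strand 40 bases past the end of S80.g04926. It stood at 109 ± 39.3 RPKM in vegetal, 36.7 ± 18.5 in whole and 12.4 ± 5.45 in animal libraries of 110 cells (log2 vegetal minus animal 3.07 ± 0.41 SE, limma adjusted p = 6.92e-06). Farther out, S80.g13696 and S80.g13465, at 1011 and 1513 bases, were also vegetal-higher but low, at 4.65 ± 3.31 and 4.32 ± 2.19 RPKM in vegetal hemispheres (limma adjusted p = 0.00175 and 0.000988).

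Each of these neighbours thus shared a feature that set its partner apart among the 5. For S31.g08208 it was the low level at 8 cells, and for S80.g01497 the animal level at 110 cells. Between the stages, the animal mean of S31.g00819 went from 2.37 to 0.424 RPKM, both under their mean floors. That of S31.g08208 went from 1.27 ± 0.473 to 1.65 ± 1.64 RPKM (SD, n = 4). S104.g11087, a neighbour of S104.g10185, was also present but low in every library of 8 cells, with group means of 1.12 to 1.32 RPKM. The libraries did not keep strand, so reads that run past the end of a model cannot be assigned to a strand. Whether the models of an end-to-end pair are parts of 1 transcript was not tested.

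Around S104.g10185 the regional difference extended over several models. S104.g11087, with the match KH.C5.326, begins on the plus strand 1049 bases away and stood at 28.1 ± 9.07 RPKM in vegetal and 1.83 ± 0.881 in animal hemispheres of 110 cells (SD, n = 4; log2 vegetal minus animal 3.35 ± 0.31 SE, limma adjusted p = 2.40e-08). S104.g07208 (KH.C7.235) and S104.g11931 (KH.L108.8) follow on the minus strand, 1146 and 5268 bases past its end. S104.g07208 was listed at 0 in all libraries of 8 cells and stood at 9.06 ± 6.21 RPKM in vegetal hemispheres of 110 cells (limma adjusted p = 6.22e-08 against animal hemispheres). S104.g11931 stood at 9.49 ± 12.7 RPKM, of which number 2 gave 28.6 RPKM (limma adjusted p = 9.66e-05).

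In that region S104.g06518 (KH.C11.224) was present at 8 cells, at 29.6 ± 3.29 RPKM in vegetal hemispheres, and stood at 78.1 ± 8.01 in vegetal and 37.8 ± 12 in animal hemispheres of 110 cells (SD, n = 4; limma adjusted p = 0.000406). It overlaps S104.g11087 on the opposite strand, so the reads of these neighbours cannot be fully told apart. S104.g11030, the farthest of the tested neighbours at 8377 bases, was not called (limma adjusted p = 0.570).

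**Figure D4:**
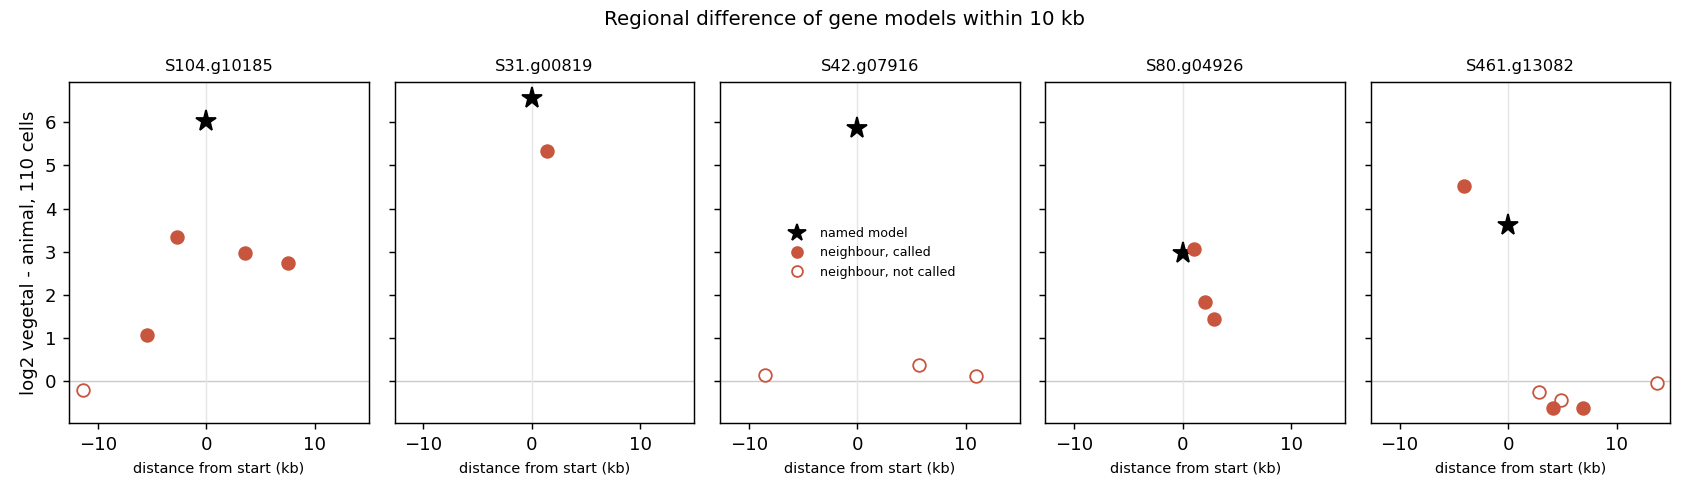
Vegetal minus animal difference of log2(RPKM + 1) at 110 cells (vertical) against the distance in kb from the start of each of the 5 models, positive downstream (horizontal); stars are the 5 models, circles the middles of tested neighbours within 10 kb, filled where limma called a difference. Called vegetal-higher neighbours flank S104.g10185 and lie just downstream of S31.g00819 and S80.g04926, and the 3 neighbours of S42.g07916 lie near 0.

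S42.g07916 stood apart from its neighbours. S42.g03054, with no match, begins 557 bases past its end on the same strand and stood at 13.6 ± 4.27 RPKM in vegetal and 10.3 ± 3.13 in animal hemispheres of 110 cells (SD, n = 4; limma adjusted p = 0.437). That neighbour was present at 8 cells and was lower at 110 cells in whole embryos, from 17.9 ± 2.36 to 8.58 ± 1.66 RPKM (log2 difference -0.99 ± 0.22 SE, limma adjusted p = 0.0017). S42.g14639, 612 bases before the start of S42.g07916, was at 0.667 RPKM or less in all libraries and was not tested.

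Next to S461.g13082, S461.g12970 (KH.S654.2) begins on the plus strand 2452 bases away. It stood at 26.5 ± 7.43 RPKM in vegetal, 24.4 ± 7.72 in whole and 0.165 ± 0.152 in animal libraries of 110 cells (SD, n = 4; log2 vegetal minus animal 4.53 ± 0.23 SE, limma adjusted p = 3.32e-12). Its vegetal and whole libraries overlapped, whereas those of S461.g13082 did not. On the other side S461.g09444 (KH.C5.303), 1906 bases past the end of S461.g13082, was present at 8 cells. It stood at 69.3 ± 9.53 in whole, 39.8 ± 5.60 in vegetal and 61.4 ± 8.25 RPKM in animal libraries of 110 cells. Its whole libraries, 59.9 to 78.5 RPKM, also lay above its vegetal libraries, 34.7 to 47.8 RPKM, without overlap.

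Models with the same best match as 1 of the 5 were few and low. S20.g10741 shares KH.C6.217 with S104.g10185 and S12.g12304 shares KH.C1.224 with S42.g07916, and both were listed at 0 in all 24 libraries. S61.g03659 shares KH.S589.4 with S461.g13082 and stood at 2.31 ± 1.03 RPKM in vegetal, 1.40 ± 0.574 in whole and 0 in animal libraries of 110 cells (SD, n = 4; log2 vegetal minus animal 1.68 ± 0.21 SE, limma adjusted p = 2.03e-06). In this model the whole mean lay below the vegetal mean. How reads with several matches were counted is not given in the sources used here, so a split of reads between such models was not tested.

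The profile over the 24 libraries was set against every other tested gene by the root mean square difference of log2(RPKM + 1), after each gene's own mean was subtracted. Among genes outside the 5, the most like S31.g00819 and S80.g04926 were the end-to-end neighbours described above, S31.g08208 (0.64) and S80.g01497 (0.51). The most like S104.g10185 was S184.g04760 (KH.L119.3, 0.52), at 76.9 ± 16.9 RPKM in vegetal, 41.2 ± 7.26 in whole and 0.912 ± 0.847 in animal libraries of 110 cells (SD, n = 4). The most like S42.g07916 was S420.g05435 (KH.C3.567, 0.44), at 73.5 ± 7.53 in vegetal, 26.4 ± 10.1 in whole and 0.770 ± 1.06 RPKM in animal libraries.

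The most like S461.g13082 was S264.g00833 (KH.L19.12, 0.37), which also had a higher mean in whole embryos, 15.9 ± 2.97 RPKM, than in vegetal hemispheres, 9.68 ± 2.79 RPKM, at 110 cells (SD, n = 4). Their ranges overlapped, from 12 to 18.7 and from 6.04 to 12.5 RPKM. Among the 5 themselves, S104.g10185 and S42.g07916 were nearest to each other, at 0.65, and S31.g00819 and S80.g04926 farthest apart, at 1.96. The median difference from S104.g10185 over all tested genes was 2.88. These values describe likeness over libraries that share stage, region and number. Hemisphere values entered the choice of the models, so the likeness among the 5 follows in part from that choice.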

How the data were processed

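The authors deposited RPKM values per gene model and library, and a gene annotation. HISAT2 is the aligner named, per the submitters' processing notes. Per the labels' protocols libraries were made from total RNA with an Illumina TruSeq kit and did not keep strand. Build, read counter and tool versions: not given in the sources used here. RPKM times exon length in kb gave nearly the same sum in each library.

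Depth was inferred from the step between low values times exon length. Of these values 67.4% to 77.5% lay within 0.1 reads of a whole number (20% by chance), and 73.3% to 90.2% of those were even, so reads were taken as counted in pairs, with 1830000 to 4600000 pairs per library (median 3020000). The exon length used by the authors is not given, so pairs are approximate and no count model was used. A floor is 3 pairs in a library (0.390 to 5.31 RPKM over the 5 models) and covers counting error only. No library pair held identical values.

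All 24 libraries entered 1 limma 3.58.1 fit (R 4.3.3) of log2(RPKM + 1) on 6 groups with a trended prior, over the 12703 genes that reached 1 RPKM in 4 libraries. Tests were two-sided, adjusted by the Benjamini-Hochberg method over all 12703, with a threshold of 0.05. A run on simulated data treated libraries as independent and changed no genes near 0. It does not cover same-numbered libraries or genes near 0, and nothing is concluded from it here. The scale understates changes of low genes. The members and lists were chosen with earlier results of these data known. Named besides the 5 are models within 10 kb, models with the same best match and, for each of the 5, the tested gene of most like profile. Same-numbered libraries of 110 cells were compared as numbers because their deviations from the group means correlated at 0.40 to 0.49 between vegetal and animal and 0.41 to 0.47 between vegetal and whole libraries. Alternatives changed the pseudocount, filter, scaling, libraries and block. The main fit did not use the number, and a block for it was tried only for the contrast of whole embryos. Calls between hemispheres near the threshold were therefore not checked for it. The 2 animal-higher neighbours are such calls (limma adjusted p = 0.039 and 0.049). No sequence is printed, as no genome was used here.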

Additional observations from a re-analysis of the deposited data

Results flagged for a closer look

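Among 30 groups of 4 libraries, 6 for each of the 5 models, 1 library lay far from the other three in 5 groups. Among continuous values chance gives about 1 in 20, but in 4 of these groups the other three libraries were exactly 0, so that any read pair stands apart, and that rate does not apply. All 5 were groups of 8 cells in which that library stood highest, on few read pairs. They were S104.g10185 in whole embryos (number 5, 0.753 RPKM, about 3 pairs), S31.g00819 in whole embryos (number 3, 4.67 RPKM, about 5 pairs), S80.g04926 in vegetal hemispheres (number 5, 0.91 RPKM, about 2 pairs), S80.g04926 in whole embryos (number 4, 0.489 RPKM, 1 pair) and S461.g13082 in vegetal hemispheres (number 2, 0.254 RPKM, 1 pair).

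The stage change differed between the hemispheres in each of the 5 models, as their choice implies. On the log2(RPKM + 1) scale the change in vegetal minus that in animal hemispheres was 6.0 for S104.g10185, 6.18 for S31.g00819, 6.16 for S42.g07916, 2.74 for S80.g04926 and 3.53 for S461.g13082, given with no test.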

How the results depend on the processing

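The 5 models were picked as genes that come on, so their rise in whole embryos is no test of stability. Under 20 alternatives they had log2 differences of 3.43 to 8.22 for S104.g10185, 3.02 to 4.97 for S31.g00819, 2.77 to 7.16 for S42.g07916, 3.32 to 8.20 for S80.g04926 and 2.47 to 7.83 for S461.g13082, lowest with a pseudocount of 5 and highest with 0.1. The order of the 5 turns with the pseudocount: with 1 the lowest was S31.g00819, with 5 it was S461.g13082. Over all genes, leaving out libraries or numbers gave 1093 to 1596 genes called higher and 896 to 1383 called lower, in place of 1721 and 1383, with the fewest calls without number 5 of every group. With the replicate number as a block 2464 were called higher and 2137 lower. Same-numbered whole embryos of the 2 stages deviated together at 0.081 to 0.416, each closest to its own number, but number 5 was under 0.1, so the numbers were not taken to pair these libraries. The animal and whole shares of the vegetal level moved by less than the spread between numbers under rescaling, as ratios of group means and without each number. Depth limits the 8-cell values and the animal values of S31.g00819 and S461.g13082, which rest on 0 to 6 read pairs per library. It also limits the animal values of S104.g10185 and S42.g07916 at 110 cells, which rest on 3 to 9 and 0 to 25 read pairs per library.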
